A study of Mus musculus with 30 samples.

Results

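This report covers 36 genes of antioxidant defence, glutathione metabolism and iron handling in the mouse heart. They are the rows of the deposited count table whose symbol in the GENCODE mouse annotation is on a list of 36 symbols. Each symbol matched 1 row, so the members are 36 of the table's 55487 genes. RNA was measured in 30 hearts by poly(A)-selected, paired-end sequencing, 8 weeks after sham surgery or transverse aortic constriction (TAC), in which a clip narrows the aorta and the heart pumps against a higher pressure. The study asked what the carnitine palmitoyltransferase gene Cpt1a, whose enzyme admits long-chain fatty acids to mitochondria, does under that load. One cohort holds mice with a floxed Cpt1a gene after sham surgery (FF_sham) or TAC (FF_TAC) and cardiac-specific Cpt1a knockout mice after sham surgery (KO_sham) or TAC (KO_TAC), with 4 libraries in each group. The other holds C57Bl/6 mice given saline before sham surgery (PBS_sham) or TAC (PBS_TAC), with 3 libraries each, and C57Bl/6 mice given an AAV9 vector carrying Cpt1a before sham surgery (AAV_sham) or TAC (AAV_TAC), with 4 libraries each. Per the series text the vector used a cardiac troponin T promoter. The driver of the knockout and the age of the mice are not given in the sources used here, and the clip widths of 0.016 or 0.018 inch are not tied to single mice. The titles of the KO_TAC samples hold the words TAC and Sham, while their genotype and treatment labels give knockout and constriction, and the labels were followed.

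Cells meet oxidants with enzymes that remove superoxide and peroxides, and with the glutathione and thioredoxin systems, which keep the thiol- and selenium-dependent peroxidases reduced. Many of these genes are targets of NRF2 (the product of Nfe2l2), a transcription factor that KEAP1 sends for degradation and that electrophiles release, and Hmox1 and Nqo1 are among its best known targets. Iron is tied to this defence because free iron turns peroxide into more reactive species. Ferritin (Fth1, Ftl1) stores it, ferroportin (Slc40a1) exports it and the transferrin receptor (Tfrc) imports it, and the heart, rich in mitochondria, depends on all of them.

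The iron genes are known for hairpins in their untranslated regions, the iron-responsive elements, which are bound by iron regulatory proteins when iron is short. A search of the GENCODE M21 transcripts is shown here because it marks members whose RNA may be controlled in this way. It asked for a loop of CAGTGN (last base not G) between 5 bases on each side that pair, G-T pairs included. A C had to stand just before the first of these pairs. Whether that C is unpaired, and the stem below it, were not checked. The loop is in capitals, all positions are GRCm38, and each site is written 5′ to 3′ on the strand of its gene.
Fth1, 5′ untranslated region, chr19:9982733-9982759, plus strand: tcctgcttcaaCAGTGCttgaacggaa
Ftl1, 5′ untranslated region, chr7:45459780-45459806, minus strand: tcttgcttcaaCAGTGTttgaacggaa
Slc40a1, 5′ untranslated region, chr1:45925466-45925492, minus strand: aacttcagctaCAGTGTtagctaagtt
Tfrc, 3′ untranslated region, the first of 4 matches, chr16:32631220-32631246, plus strand: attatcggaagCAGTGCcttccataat
Such a match lay in the 5′ untranslated region of 23 of 21877 coding genes (0.105%) and in the 3′ untranslated region of 100 (0.457%). Among the members, 3 had it in the 5′ region and Tfrc had 4 in the 3′ region, and 1 further match lay in the coding sequence of Keap1. A match is a description of the letters and does not show that the hairpin is used in these hearts.

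The motif that NRF2 binds with small MAF proteins, the antioxidant response element, has the core TGACNNNGC. It was searched on both strands of RefSeq promoter windows (GRCm38.p6) from 250 bases before to 50 bases after each gene's start. Windows were at hand for 29 of the 36 members, and 8 of the 29 (27.6%) held the core, against 14% of the 27025 genes of the table. Followed by A, it was in 2 of the 29 (6.9%) and in 3.45% of all genes. The sites of 4 members that the results below turn on are printed with 10 bases on each side and the core in capitals.
Txnrd1, starting 92 bases before the start, chr10:82859104-82859132, minus strand: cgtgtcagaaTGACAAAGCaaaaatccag
Srxn1, starting 29 bases after the start, chr2:152105542-152105570, minus strand: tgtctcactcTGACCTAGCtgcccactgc
Nfe2l2, starting 240 bases before the start, chr2:75704885-75704913, minus strand: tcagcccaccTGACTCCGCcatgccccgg
Gclm, starting 134 bases before the start, chr3:122245413-122245441, minus strand: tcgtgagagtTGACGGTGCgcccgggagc
Only the Txnrd1 site among these 4 is followed by A. Txnrd1 has 3 windows, of which 1 holds the core, and this site lies inside the gene, at a start other than the first. The other members with the core in a window were Gsta3, Mgst1 (1 of its 2 windows), Prdx1 and Sod1, and the windows of Nqo1, Sqstm1 and Ftl1 did not hold these letters.

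Levels are given in CPM, a gene's counts relative to the library's total after TMM scaling. Total counts ran from 14839758 to 22070373 per library, and all 36 members passed the filter on low counts in both cohorts, with at least 63 counts in each library. Cpt1a itself was 11.1 to 19.6 CPM in KO_TAC and 37.8 to 52.6 CPM in FF_sham, but the library labelled KO_sham 2, at 46.2 CPM, lay inside the FF_sham range, and FF_TAC 2 and 3, at 20.3 and 16.2 CPM, lay near the other knockouts. So the level of the targeted gene does not set these 3 libraries apart as their labels would. In 7 of the 16 floxed-cohort libraries (FF_TAC 2 and 3, KO_sham 2 and all 4 of KO_TAC) summed haemoglobin transcripts were 1.40 to 51.1 CPM, against 384.0 to 678 CPM in the other 9. Unlike the other levels, these haemoglobin sums were taken without TMM scaling. The same 7 held 1992 to 5062 CPM of 12 summed early-response genes (such as Fos, Junb and Egr1), against 201 to 297 CPM in the other 9. Genes with up to 1 kb of exon sat higher in KO_TAC 2 (by 0.83 on the log2 scale, as a median against the FF_sham mean), KO_TAC 3 (0.46) and FF_TAC 2 (0.45). All 7 cardiomyocyte markers had counts in every library, but PBS_sham 3 held only 24211 CPM of them against 47826 to 62380 CPM in the rest of the AAV9 cohort. Transcripts of the mitochondrial genome took 12.1% to 18.7% of the counts in KO_TAC and 20.9% to 26.0% in the other 12 libraries of the floxed cohort, and the part of that share in the differences of KO_TAC was not tested. The atrial light chain gene Myl7 ran from 0 to 3143 CPM in the floxed cohort and from 0.0585 to 1006 CPM in the AAV9 cohort. Libraries that differ in these ways are named beside the results they touch. Each adjusted p below comes from edgeR's quasi-likelihood F test, adjusted after Benjamini and Hochberg over all genes tested, unless another tool is named. A gene was called when it was under 0.05. No label says that the hearts of a group came from separate litters or days, and the p-values measure the spread between these samples.

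Per kilobase of exon, the most abundant member in FF_sham was Fth1, at 409.5 CPM per kb ± 46.7 (SD, n = 4), followed by Gpx4 (223), Mgst3 (214) and the mitochondrial peroxiredoxin Prdx3 (172). The inducible genes lay far lower: Nqo1 had 33.0 CPM per kb, Srxn1 10.6, Txnrd1 7.80 and Hmox1 6.34. Glutathione synthesis was at the foot of the order, with Gclm at 4.39, Gclc at 3.56 and Gss at 2.60 CPM per kb. The length used joins all annotated exons of a gene, which can exceed that of the transcript expressed. In CPM without it, Gclm (27.6), Gss (15.4) and Gclc (13.4) lay above Hmox1 (11.1) in FF_sham. Per kb the exporter Slc40a1, at 2.98, lay between Gclc and Gss, and only the transferase Gsta3, at 1.22 CPM per kb, was lower than Gss. Gpx3 had the widest spread of these levels, 153 CPM per kb ± 147 (SD, n = 4).

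In the overloaded knockout heart a part of this defence was higher than in either comparison group: Hmox1, the ferritin light chain Ftl1, the peroxidases Gpx1 and Gpx3, the extracellular superoxide dismutase Sod3, the thioredoxin genes Txn1, Txnrd1 and Srxn1, the glutathione synthetase Gss and the peroxiredoxin Prdx4. Against KO_sham, 13 of the 36 members were called, 12 higher and 1, Slc40a1, lower. This is 36.1% of the members beside 25.8% of the 15596 genes tested, and 12 higher members (33.3%) beside 14.3% of genes called higher and 11.5% called lower. Against FF_TAC, 11 were called, 10 higher and 1, Prdx3, lower, which is 30.6% beside 14.3% of all genes, or 27.8% called higher beside 7.53% of genes higher and 6.8% lower. All 36 members also passed a stricter filter, an average of 5 CPM or more, as did 10518 genes in all. Of these, 3447 were called against KO_sham (1683 higher), among them 14 members (12 higher). Against FF_TAC 1919 were called (860 higher), among them 11 members (10 higher). Beside these genes the excess of the members was smaller than the percentages above give. The members were chosen with earlier results known, and the excess itself was not tested. The median log2 fold change of the 36 members was 0.35 and 0.23 in the 2 comparisons, beside 0.020 and 0.036 over all genes. Without KO_TAC 2 these 2 medians of the members were 0.13 and 0.054, and with an offset for gene length 0.24 and 0.14. The comparisons share the KO_TAC libraries. With a term in the model for the 7 haemoglobin-low libraries, 1 member (Sod3) was called against KO_sham, where 1.75% of all genes were, and 5 (Hmox1, Prdx4, Gpx1, Sod3 and Ftl1) against FF_TAC, where 7.23% were. When only the haemoglobin-low libraries were fitted, KO_TAC against FF_TAC 2 and 3, edgeR called 0 members and 0 of all genes. An unadjusted p under 0.05 was found for 5 members (Gpx3, Hmox1, Prdx4, Sod3 and Srxn1) and for 1629 of 16941 genes. Against KO_sham, 8 members were called without KO_sham 4, among 2546 genes. Against FF_TAC, 4 were called without FF_TAC 4, among 1126 genes. There 6 were called without FF_TAC 1 or without KO_TAC 3, among 1375 and 1204 genes. Without KO_TAC 1, Fth1, Gpx4, Gsta4, Nqo1, Prdx2, Prdx5 and Prdx6 were called higher against KO_sham as well, and against FF_TAC Fth1, Gpx4 and Sqstm1 were called higher and Slc40a1 lower. The fit without KO_TAC 1 called 6440 genes against KO_sham and 3845 against FF_TAC, beside 4031 and 2235 with all libraries.

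**Figure D1:**
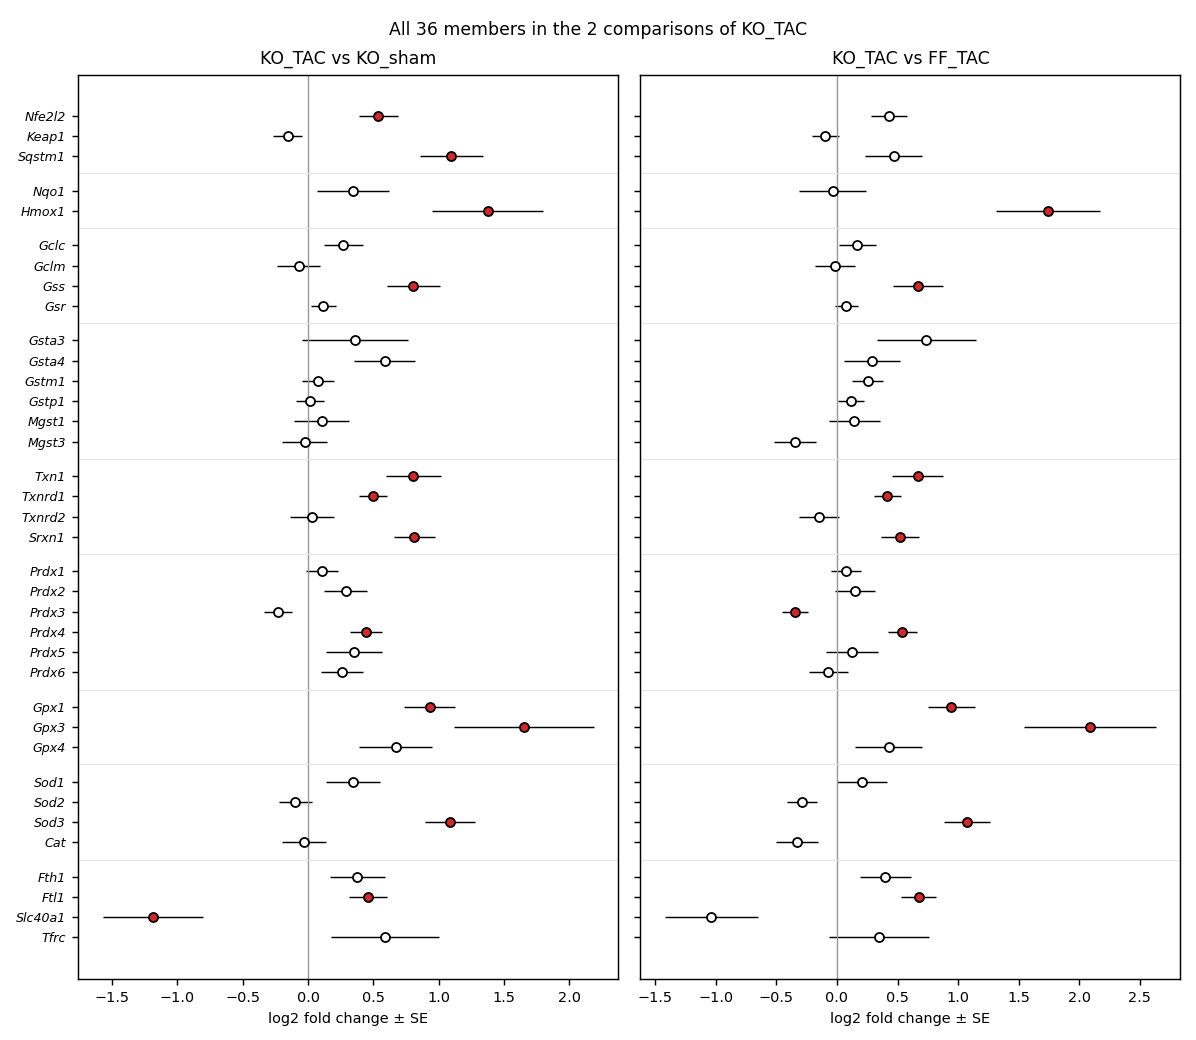
Log2 fold changes of all 36 members, with bars of 1 SE, in KO_TAC against KO_sham (left) and against FF_TAC (right), ordered by role. Filled points are called at an adjusted p under 0.05. Most filled points lie to the right of 0 in both panels, and Slc40a1 (left) and Prdx3 (right) are the filled points below it.

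**Figure D2:**
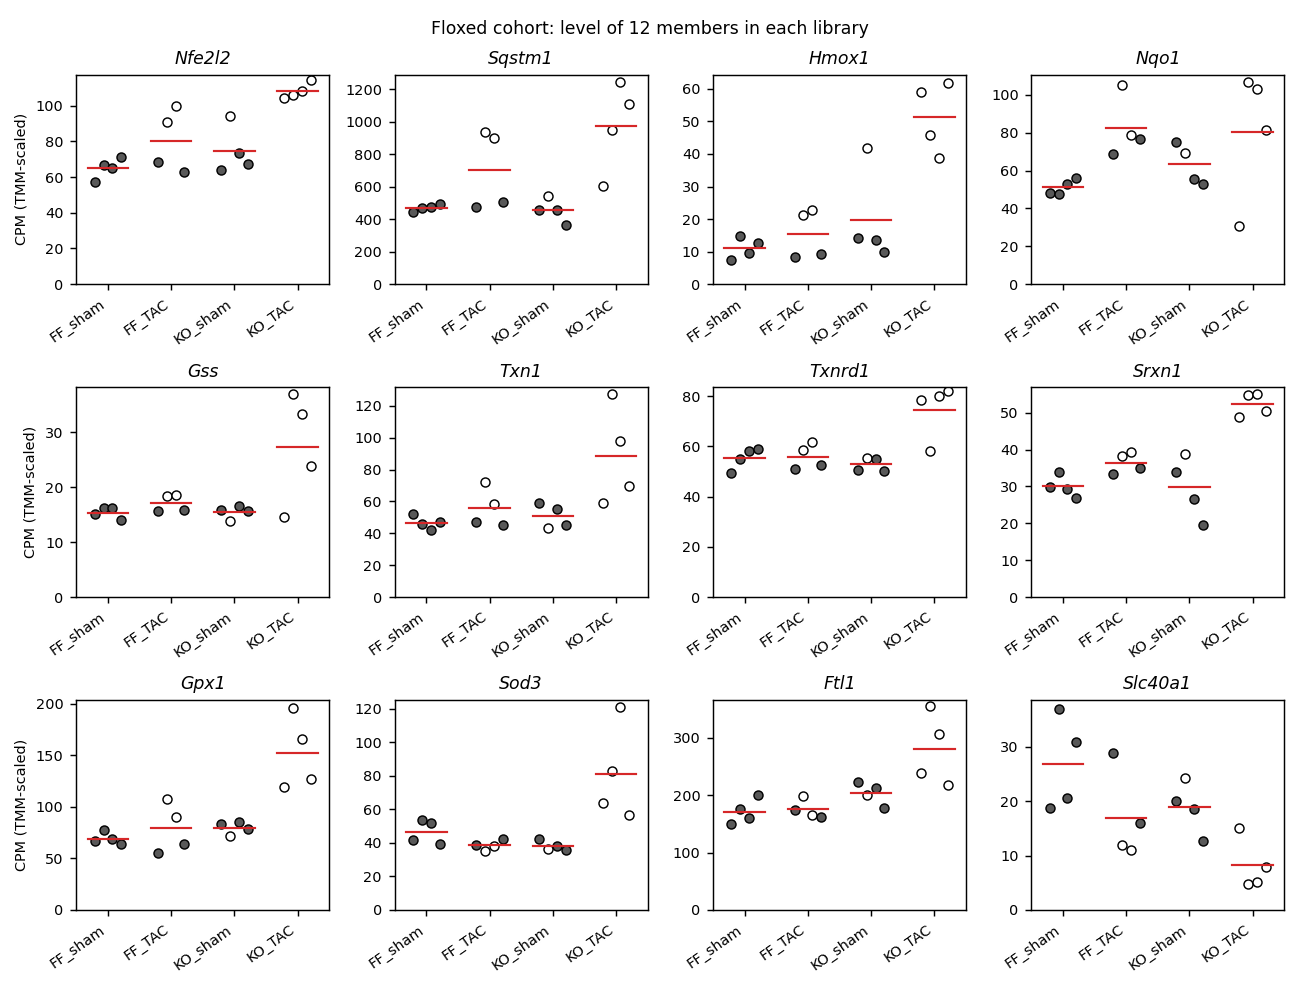
Level in CPM (vertical axis, from 0) of 12 members in each library of the floxed cohort, by group, with the group mean as a line. Open points are the 7 haemoglobin-low libraries. For Sod3 all 4 KO_TAC points lie above the other 12 libraries, while the open points of Nfe2l2 and Sqstm1 in FF_TAC lie above the filled ones.

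Of the 3 regulators, Nfe2l2 and Sqstm1 rose in KO_TAC against KO_sham and none was called against FF_TAC. Nfe2l2 (ENSMUSG00000015839, chr2:75675513-75704641, minus strand) encodes NRF2. It had 57.2, 67, 64.9 and 71.2 CPM in FF_sham 1 to 4, 68.3, 90.8, 99.8 and 62.9 in FF_TAC, 64, 94.2, 73.2 and 67.2 in KO_sham and 104, 106, 108 and 115 in KO_TAC. The 4 KO_TAC libraries lay above the other 12. Next came the haemoglobin-low libraries FF_TAC 3, KO_sham 2 and FF_TAC 2. Against KO_sham it rose (log2 fold change 0.54 with SE 0.15, adjusted p 0.0189), and the difference from FF_TAC was not called (log2 fold change 0.43 with SE 0.15, adjusted p 0.0662), although DESeq2 called it (adjusted p 0.0433). With the haemoglobin term the changes were 0.17 and 0.20, and neither was called. The call against KO_sham also went without KO_sham 1 or without KO_sham 4, and without FF_TAC 3 the difference from FF_TAC was called at 0.54 (adjusted p 0.0274).

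Sqstm1 (ENSMUSG00000015837, chr11:50199366-50210827, minus strand) encodes p62, an autophagy receptor that captures KEAP1. Its exons overlap those of Mrnip on the opposite strand, and whether counting used the strand is not stated in the sources used here, so its counts are uncertain to that extent. It had 444, 471, 474 and 492 CPM in FF_sham, 476, 939, 899 and 508 in FF_TAC, 454, 546, 459 and 367 in KO_sham and 604, 948, 1247 and 1108 in KO_TAC. FF_TAC 2 and 3 lay inside the KO_TAC range, while FF_TAC 1 and 4 lay inside that of the sham hearts. Sqstm1 rose against KO_sham (log2 fold change 1.10 with SE 0.24, adjusted p 0.0062), without overlap, and in all 8 fits that left out a library. Against FF_TAC it was not called (log2 fold change 0.47 with SE 0.24, adjusted p 0.187), but it was 0.98 (adjusted p 0.0109) without FF_TAC 2 and 3 and 0.63 (adjusted p 0.0434) without KO_TAC 1. With the haemoglobin term the change against KO_sham was 0.59 (adjusted p 0.196). Keap1, the repressor, was not called (log2 fold change −0.16 with SE 0.11, adjusted p 0.303 against KO_sham), and its exons overlap Gm16754 on the opposite strand.

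Of the haem and quinone enzymes, Hmox1 was called in both comparisons and Nqo1 in neither. Hmox1 (ENSMUSG00000005413, chr8:75093621-75100589, plus strand) encodes haem oxygenase 1, which opens haem to biliverdin, carbon monoxide and iron. It had 7.32, 14.9, 9.72 and 12.5 CPM in FF_sham, 8.49, 21.1, 22.7 and 9.22 in FF_TAC, 14.1, 42, 13.5 and 9.81 in KO_sham and 59.1, 45.7, 38.9 and 61.7 in KO_TAC. No KO_TAC library overlapped FF_TAC, and the library labelled KO_sham 2 lay inside the KO_TAC range. Within FF_TAC and KO_sham the haemoglobin-low libraries were the highest. Hmox1 rose 2.60-fold against KO_sham (log2 fold change 1.38 with SE 0.42, adjusted p 0.0286) and 3.35-fold against FF_TAC (log2 fold change 1.74 with SE 0.43, adjusted p 0.0149). Without KO_sham 2 the first was 2.03. With the haemoglobin term the first fell to 0.47 (adjusted p 0.316) and the second to 1.13 (adjusted p 0.0129). When only the haemoglobin-low libraries were fitted, 4 of KO_TAC and 2 of FF_TAC, the change was 1.2 (adjusted p 0.261). Leaving out KO_TAC 4, KO_sham 1, KO_sham 3 or KO_sham 4 ended the first call, and leaving out FF_TAC 4 the second.

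Macrophages are rich in Hmox1 and Slc40a1. The sum of 10 macrophage markers was 486 to 580.2 CPM in KO_TAC, 286 to 357 in FF_TAC and 365 to 705 in KO_sham. None was at 0, and 5 of the 10 were called higher in KO_TAC against FF_TAC, while 1 was called higher and 1 lower against KO_sham. Of the 10, Cd14 was 19.0 to 75.4 CPM in the 7 haemoglobin-low libraries and 3.84 to 10.8 in the other 9. The sum of the 10 was 357 and 304 CPM in FF_TAC 2 and 3, beside 286 and 300 in FF_TAC 1 and 4. In KO_sham 2 it was 365, the lowest of its group. Another of the 10, Lyz2, had 120 and 91.7 CPM in FF_TAC 2 and 3, beside 102 and 113 in FF_TAC 1 and 4. The part of macrophages in the changes of Hmox1 and Slc40a1 was not tested. In RNA of heart tissue more or fewer cells of a type and more or less RNA per cell cannot be told apart.

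Nqo1 (ENSMUSG00000003849, chr8:107388225-107403206, minus strand) encodes a quinone reductase and, as an NRF2 target, is often read beside Hmox1. It had 48.3, 47.5, 52.9 and 56.3 CPM in FF_sham, 68.9, 105, 79 and 76.7 in FF_TAC, 75.2, 69.5, 55.6 and 52.7 in KO_sham and 30.5, 107, 103 and 81.4 in KO_TAC. KO_TAC 1 had the lowest level of the 16, and it also had the most of the atrial light chain gene Myl7, 3143 CPM against 0.119 to 0.750 in KO_TAC 2 to 4. Neither the difference from KO_sham (log2 fold change 0.35 with SE 0.28, adjusted p 0.359) nor that from FF_TAC (log2 fold change −0.036 with SE 0.28, adjusted p 0.942) was called, and the groups overlapped. Without KO_TAC 1 the first was called, at 0.61 (adjusted p 0.00765), and the second was 0.22 (not called). Voom with sample weights also called the first, at 0.66 (adjusted p 0.00485).

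In glutathione synthesis and recycling, 1 of 4 members rose. Gss (ENSMUSG00000027610, chr2:155563181-155592810, minus strand) encodes glutathione synthetase, the second step of the pathway. It had 15.1, 16.1, 16.3 and 14 CPM in FF_sham, 15.6, 18.4, 18.5 and 15.8 in FF_TAC, 15.9, 13.8, 16.6 and 15.7 in KO_sham and 14.6, 37, 33.3 and 23.9 in KO_TAC. KO_TAC 2, 3 and 4 were above all other libraries and KO_TAC 1 was among the sham hearts. Gss was higher than in KO_sham (log2 fold change 0.81 with SE 0.20, adjusted p 0.0126) and than in FF_TAC (log2 fold change 0.67 with SE 0.20, adjusted p 0.0397). The latter call held only when KO_TAC 1 or KO_TAC 4 was the library left out, and went in the other 6 such fits. Gss exons overlap Acss2, Gssos1 and Gssos2 on the opposite strand, so the count is uncertain. Gclc and Gclm, the subunits of the first and rate-limiting enzyme, did not pass the test against KO_sham (log2 fold change 0.27 with SE 0.15, adjusted p 0.189 for Gclc and log2 fold change −0.072 with SE 0.17, adjusted p 0.77 for Gclm), nor did Gsr, glutathione reductase (log2 fold change 0.12 with SE 0.10, adjusted p 0.382).

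None of the 6 glutathione transferases (Gsta3, Gsta4, Gstm1, Gstp1, Mgst1 and Mgst3), which join glutathione to electrophiles, was called in either comparison. Their log2 fold changes ran from −0.026 to 0.59 against KO_sham and from −0.35 to 0.74 against FF_TAC. Gsta4, which acts on the lipid peroxidation product hydroxynonenal, had the largest change against KO_sham (log2 fold change 0.59 with SE 0.23, adjusted p 0.0732). Its values in KO_TAC were 75.2, 186, 123 and 74.1 CPM, with KO_TAC 2 and 3 above all of KO_sham (68.7 to 85.8 CPM) and KO_TAC 1 and 4 inside it. KO_TAC 2 and 3 are the libraries where short genes sat high, and with an offset for gene length the change was 0.23. Voom called the change of Gsta4 at 0.63 (adjusted p 0.00388), and it was also called without KO_TAC 1 or without KO_TAC 4, at 0.73 and 0.74. Gsta3 was called against KO_sham without KO_sham 2, at 1.03 (adjusted p 0.0347). The gene-length offset called Mgst3 lower, at −0.37 (adjusted p 0.0162) against KO_sham and −0.56 (adjusted p 0.00245) against FF_TAC. Gstp1 has a near-identical neighbour, Gstp2, and how reads were split between them is not stated.

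The thioredoxin system rose as 3 of its 4 members in both comparisons. Txn1 (ENSMUSG00000028367, chr4:57943373-57956411, minus strand) is cytosolic thioredoxin. It had 52.4, 45.6, 41.9 and 46.9 CPM in FF_sham, 47.1, 72, 58.5 and 45.3 in FF_TAC, 58.8, 43, 55.3 and 45.1 in KO_sham and 58.8, 127, 98.1 and 69.8 in KO_TAC. Its highest libraries were KO_TAC 2 and 3. It rose against KO_sham (log2 fold change 0.81 with SE 0.21, adjusted p 0.0146) and against FF_TAC (log2 fold change 0.67 with SE 0.21, adjusted p 0.0458), the latter not when FF_TAC 1, 3 or 4 or KO_TAC 2 or 3 was left out. With the gene-length offset both were 0.45, and the calls held (adjusted p 0.00495 and 0.00588).

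Txnrd1 (ENSMUSG00000020250, chr10:82833951-82897712, plus strand) encodes the cytosolic reductase of thioredoxin. Of its 3 promoter windows 1 holds the antioxidant response core followed by A, printed above. It had 49.3, 54.8, 58.3 and 58.7 CPM in FF_sham, 50.9, 58.6, 61.6 and 52.7 in FF_TAC, 50.6, 55.5, 55.1 and 50.3 in KO_sham and 78.4, 58, 80.2 and 81.8 in KO_TAC. KO_TAC 1, 3 and 4 were above all other libraries, and KO_TAC 2 stood with the controls. Txnrd1 rose 1.41-fold against KO_sham (log2 fold change 0.50 with SE 0.11, adjusted p 0.00693), in all 8 fits that left out a library. Against FF_TAC it rose 1.33-fold (log2 fold change 0.42 with SE 0.11, adjusted p 0.0212), not called without FF_TAC 1, FF_TAC 4, KO_TAC 3 or KO_TAC 4.

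Srxn1 (ENSMUSG00000032802, chr2:152105516-152111376, plus strand) encodes sulfiredoxin, which repairs over-oxidised peroxiredoxins. It had 29.96, 34, 29.2 and 27 CPM in FF_sham, 33.4, 38.4, 39.3 and 34.9 in FF_TAC, 33.9, 38.8, 26.6 and 19.7 in KO_sham and 48.8, 54.9, 55.1 and 50.4 in KO_TAC. The 4 KO_TAC libraries lay close together and above the other 12. It rose against KO_sham (log2 fold change 0.81 with SE 0.16, adjusted p 0.0036), called in all 8 fits that left out a library. The rise against FF_TAC (log2 fold change 0.52 with SE 0.16, adjusted p 0.0384) kept its call only without FF_TAC 2 or without KO_TAC 1. With the haemoglobin term these were 0.58 (adjusted p 0.0993) and 0.35 (adjusted p 0.195). Txnrd2, the mitochondrial reductase, did not pass the test against KO_sham (log2 fold change 0.029 with SE 0.17, adjusted p 0.912).

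Of the 6 peroxiredoxins, thiol peroxidases of different compartments, the endoplasmic reticulum form Prdx4 rose and the mitochondrial form Prdx3 was lower against FF_TAC. Prdx4 (ENSMUSG00000025289, chrX:155323918-155340754, minus strand) had 14.6, 16.2, 14.4 and 13.2 CPM in FF_sham, 14.2, 14, 12.7 and 13.4 in FF_TAC, 16, 13.5, 14.5 and 14 in KO_sham and 18.4, 25.5, 18.9 and 16.4 in KO_TAC. All 4 KO_TAC values were above the other 12, KO_TAC 4 by little, and KO_TAC 2 stood highest. Prdx4 rose against KO_sham (log2 fold change 0.45 with SE 0.12, adjusted p 0.0177) and against FF_TAC (log2 fold change 0.54 with SE 0.12, adjusted p 0.00974). Under the haemoglobin term these became 0.51 (adjusted p 0.11) and 0.58 (adjusted p 0.0241). Without KO_TAC 2 the first was 0.30 and was no longer called, nor was it without KO_sham 4. The second was called whichever library was left out.

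Prdx3 (ENSMUSG00000024997, chr19:60864051-60874556, minus strand) had 267, 237, 247 and 267 CPM in FF_sham, 245, 306, 244 and 246 in FF_TAC, 255, 228, 257 and 221 in KO_sham and 175, 216, 200.5 and 227 in KO_TAC. KO_TAC did not overlap FF_TAC and overlapped KO_sham. It was lower than in FF_TAC (log2 fold change −0.35 with SE 0.11, adjusted p 0.0416), a call that went without FF_TAC 1, 2 or 4 or KO_TAC 1 or 3. Against KO_sham it did not pass (log2 fold change −0.23 with SE 0.11, adjusted p 0.114). With the gene-length offset both differences were called, at −0.48 and −0.47. Cardiomyocyte markers summed to 40846 to 59972 CPM in KO_TAC and 49268 to 56347 in FF_TAC, and 2 of the 7 were called lower there. Their part in the change was not tested. The other 4 peroxiredoxins, Prdx1, Prdx2, Prdx5 and Prdx6, were not called, with changes against KO_sham from 0.11 to 0.35. On the opposite strand, exons of Prdx2 overlap Junb and Rnaseh2a, and those of Prdx5 overlap Trmt112, so their counts are uncertain to that extent. Junb was 417 to 636 CPM in the 7 haemoglobin-low libraries and 15.6 to 24.5 CPM in the other 9 of the floxed cohort. Its part in the Prdx2 counts was not tested.

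The selenium-dependent glutathione peroxidases gave the largest fold change of the members, that of Gpx3 against FF_TAC. Gpx1 (ENSMUSG00000063856, chr9:108338903-108340343, plus strand) is the abundant cytosolic enzyme. It had 66.5, 77.7, 68.6 and 64.1 CPM in FF_sham, 55, 108, 89.9 and 63.6 in FF_TAC, 83.6, 72, 85.4 and 78.1 in KO_sham and 119.7, 196, 166 and 127 in KO_TAC. Every KO_TAC library was above the other 12. FF_TAC 2 and 3 were the next highest, and KO_sham 2 was the lowest of its group. Gpx1 rose 1.91-fold against KO_sham (log2 fold change 0.93 with SE 0.19, adjusted p 0.00514) and 1.92-fold against FF_TAC (log2 fold change 0.94 with SE 0.19, adjusted p 0.00571). Each was called in all 8 fits that left out a library. With the haemoglobin term they were 0.65 (adjusted p 0.171) and 0.80 (adjusted p 0.029), and with the gene-length offset 0.65 and 0.79, both called.

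Gpx3 (ENSMUSG00000018339, chr11:54902453-54910377, plus strand) encodes the secreted peroxidase. It had 134, 678, 168 and 131 CPM in FF_sham, 301, 239, 195 and 169 in FF_TAC, 229.7, 464, 162 and 368 in KO_sham and 1489, 986, 1011 and 358 in KO_TAC. KO_TAC 1, 2 and 3 were above the other 13 libraries, and KO_TAC 4 was inside the KO_sham range. The highest FF_sham and KO_sham libraries, FF_sham 2 (678 CPM) and KO_sham 2 (464), were also those with most Myl7 in their groups (1105 and 601 CPM), as was KO_TAC 1 (3143). KO_TAC 2 and 3 had 986 and 1011 CPM of Gpx3 with under 1 CPM of Myl7. Gpx3 rose against KO_sham (log2 fold change 1.65 with SE 0.54, adjusted p 0.0354), a call that held without KO_sham 2 or KO_TAC 4 and went without any other library. It rose 4.25-fold against FF_TAC (log2 fold change 2.09 with SE 0.54, adjusted p 0.0197), not called without FF_TAC 4. Neither was called with the haemoglobin term (1.44 and 1.91). With Myl7 as a covariate the changes were 1.89 and 1.80, with adjusted p 0.00211 and 0.00254. Gpx4, which reduces lipid peroxides in membranes and restrains ferroptosis, did not pass the test against KO_sham (log2 fold change 0.67 with SE 0.28, adjusted p 0.0853) or FF_TAC (log2 fold change 0.43 with SE 0.28, adjusted p 0.312). Its KO_TAC values of 274, 937, 757 and 483 CPM spanned the lowest and the highest of the 16 libraries. Without KO_TAC 1 it was called at 0.90 (adjusted p 0.00437) and 0.66 (adjusted p 0.0329).

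Among the superoxide dismutases and catalase only Sod3 was called. Sod3 (ENSMUSG00000072941, chr5:52363791-52371418, plus strand) encodes the extracellular dismutase, which binds matrix heparan sulfate. It had 41.7, 53.8, 51.6 and 39.5 CPM in FF_sham, 38.8, 35, 38.4 and 42.1 in FF_TAC, 42.6, 36.4, 38.2 and 35.5 in KO_sham and 63.8, 83, 121 and 56.9 in KO_TAC. All 4 KO_TAC libraries were above the other 12, and the haemoglobin-low libraries FF_TAC 2 and 3 and KO_sham 2 were not raised. Sod3 rose 2.12-fold against KO_sham (log2 fold change 1.09 with SE 0.19, adjusted p 0.00229) and 2.1-fold against FF_TAC (log2 fold change 1.07 with SE 0.19, adjusted p 0.00253). It had the smallest adjusted p of the members in each comparison. Both calls held in every fit that left out a library, and with the haemoglobin term the changes were 1.18 (adjusted p 0.0366) and 1.13 (adjusted p 0.00963). The sum of 5 fibroblast markers was 1265 to 1449 CPM in KO_TAC and 615 to 956 CPM in the other 3 groups, and 2 of the 5 were called higher in each comparison. Their part in the change was not tested. Sod1 (cytosol), Sod2 (mitochondrial matrix) and Cat (peroxisome) were not called, with changes from −0.097 to 0.34 against KO_sham and from −0.33 to 0.21 against FF_TAC. Sod2 was called lower than in FF_TAC without KO_TAC 2, at −0.42 (adjusted p 0.0257).

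The iron genes moved in both directions. Ftl1 (ENSMUSG00000050708, chr7:45457944-45459884, minus strand), the ferritin light chain, had 150.1, 177, 160.2 and 199.8 CPM in FF_sham, 175, 199, 166 and 162 in FF_TAC, 223, 201, 212 and 178 in KO_sham and 239.7, 356, 307 and 218 in KO_TAC. KO_TAC did not overlap FF_TAC, and KO_TAC 4 overlapped KO_sham. It rose against KO_sham (log2 fold change 0.46 with SE 0.15, adjusted p 0.0324), a call that went without KO_TAC 2 or 3 or KO_sham 2, 3 or 4. The rise against FF_TAC (log2 fold change 0.67 with SE 0.15, adjusted p 0.0079) was called whichever library was left out. With the gene-length offset the first was 0.17 (adjusted p 0.259) and the second 0.50 (adjusted p 0.00799). Ftl1 has the named pseudogenes Ftl1-ps1 and Ftl1-ps2 and overlaps Gm10252 on the opposite strand, so its count is uncertain. Fth1, the heavy chain with the ferroxidase site, was not called. It had 1109, 2668, 2075 and 1359.6 CPM in KO_TAC, with the lowest and the highest value of the 16 libraries, and its change was 0.38 (SE 0.21, adjusted p 0.19) against KO_sham and 0.40 (SE 0.21, adjusted p 0.21) against FF_TAC. Without KO_TAC 1 these were called, at 0.54 (adjusted p 0.0261) and 0.56 (adjusted p 0.0341).

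Slc40a1 (ENSMUSG00000025993, chr1:45908068-45926523, minus strand), the only iron exporter known in mammals, went the other way. It had 18.7, 36.9, 20.6 and 30.9 CPM in FF_sham, 28.9, 12, 11 and 16 in FF_TAC, 20.03, 24.2, 18.6 and 12.6 in KO_sham and 15.1, 4.72, 5.11 and 7.91 in KO_TAC. KO_TAC 2, 3 and 4 were the lowest of the 16 libraries, followed by FF_TAC 3 and 2. It fell against KO_sham (log2 fold change −1.19 with SE 0.38, adjusted p 0.0349), a call that held without KO_TAC 1 or KO_sham 4 and went without any other library. Against FF_TAC it did not pass (log2 fold change −1.04 with SE 0.38, adjusted p 0.0818). Without KO_TAC 1 the latter was called at −1.53 (adjusted p 0.0093). It was −1.45 (adjusted p 0.0255) without FF_TAC 2 and 3, and −0.50 (adjusted p 0.759) in the fit of haemoglobin-low libraries. Endothelial markers, summed over 5 genes, were 445 to 629.6 CPM in KO_TAC and 623 to 890.4 CPM in the other 3 groups, with 4 of 5 called lower in each comparison. Their part in the change was not tested.

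Tfrc (ENSMUSG00000022797, chr16:32608920-32632794, plus strand), the transferrin receptor, had 49.8, 24.3, 35.8 and 22.2 CPM in FF_sham, 36.3, 64.1, 65.6 and 51.6 in FF_TAC, 48.6, 18.5, 34.1 and 82.9 in KO_sham and 48.1, 125, 50.05 and 54.7 in KO_TAC. KO_sham spanned from the lowest value of the 16 to the second highest, and KO_TAC 2 was the highest. Neither the difference from KO_sham (log2 fold change 0.59 with SE 0.41, adjusted p 0.297) nor that from FF_TAC (log2 fold change 0.35 with SE 0.41, adjusted p 0.591) was called. Without KO_TAC 2 they were 0.14 and −0.097, and the first was 1.02 without KO_sham 4. With all libraries, Fth1, Ftl1, Slc40a1 and Tfrc, whose hairpins are printed above, thus split in these RNA levels as 1 called higher in both comparisons, 1 called lower in 1 of them and 2 not called.

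**Figure D3:**
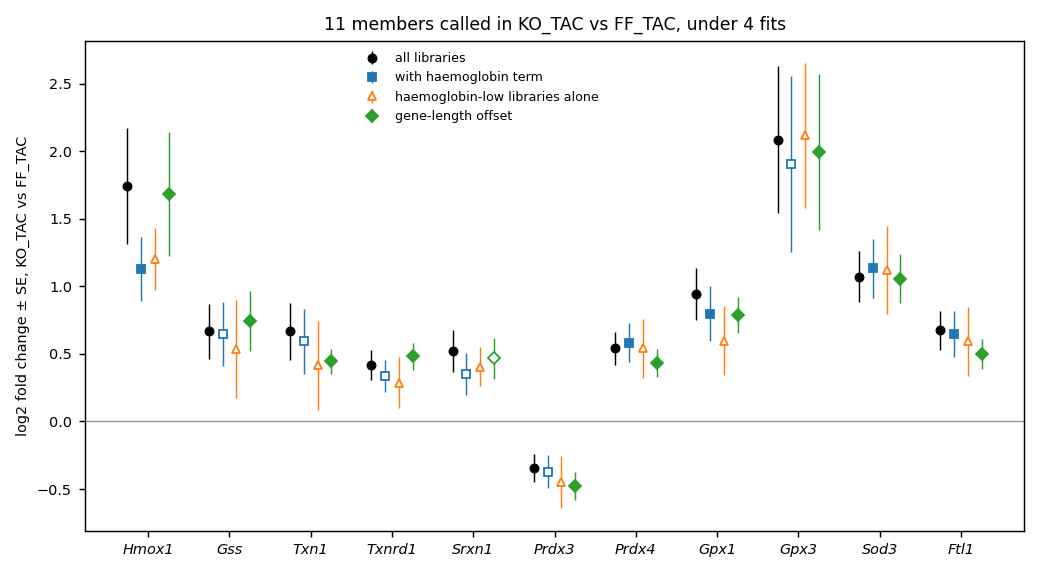
Log2 fold change in KO_TAC against FF_TAC, with bars of 1 SE, of the 11 members called there, under 4 fits: all libraries, with a haemoglobin term, with haemoglobin-low libraries alone (4 against 2), and with a gene-length offset. Filled symbols have an adjusted p under 0.05. The values of Sod3 lie at 1.06 to 1.13 in all 4, Hmox1 falls from 1.74 to 1.13 with the term, and no symbol of the haemoglobin-low fit is filled.

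In the floxed controls no member passed the test after pressure overload. In FF_TAC against FF_sham edgeR called 0 of the 36 members (0% of the 15596 genes). DESeq2 and limma voom also called 0 members, among 161 and 0 genes called. An unadjusted p under 0.05 was found for 1733 of the 15596 genes and for 5 members. These 5 were Nqo1 (log2 fold change 0.69 with SE 0.28, adjusted p 0.409), Sqstm1 (log2 fold change 0.58 with SE 0.24, adjusted p 0.41), Gstm1 (log2 fold change −0.33 with SE 0.12, adjusted p 0.381), Gstp1 (log2 fold change −0.26 with SE 0.11, adjusted p 0.411) and Keap1 (log2 fold change −0.24 with SE 0.11, adjusted p 0.443). For Nqo1 the 4 FF_TAC libraries were all above the 4 of FF_sham. For Sqstm1 the difference lay in FF_TAC 2 and 3, and with only FF_TAC 1 and 4 and FF_sham it was 0.067, while that of Nqo1 was 0.51 (adjusted p 0.547). Hmox1 gave 0.47 (SE 0.43, adjusted p 0.677), and −0.33 with those libraries.

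The knockout without overload, KO_sham against FF_sham, gave 0 called members (0% of all genes). DESeq2 (over the 28 members it gave an adjusted p) and voom also called 0 members, among 1 and 30 genes called. An unadjusted p under 0.05 was found for 0 members and for 814 of the 15596 genes. The largest difference was that of Hmox1 (log2 fold change 0.83 with SE 0.43, adjusted p 0.98), which was 0.16 without the haemoglobin-low library KO_sham 2. The median over the members was −0.034, beside 0.0043 over all genes.

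Whether TAC acted differently in the knockout was asked by the interaction. Of the members 0 were called, where 7 of all genes (0.0449%) were. With an unadjusted p under 0.05 there were 2049 of the 15596 genes and 8 members. These members were Sod3, Gpx1, Gpx3, Prdx4, Txnrd1, Srxn1, Gss and Gstm1, all with a more positive change in the knockout. Sod3 came nearest, with log2 fold change 1.36 with SE 0.26, adjusted p 0.071. DESeq2 called Sod3 alone of the members (adjusted p 0.00073), among 371 genes, and voom with sample weights called 11 members among 2930 genes. Without KO_TAC 1, Gss and Sod3 were called among 215 genes, and without KO_TAC 4, Sod3 among 102. So the difference between the TAC changes of knockout and control hearts was not called for any member by edgeR, including Hmox1 (log2 fold change 0.91 with SE 0.60, adjusted p 0.525), although several changes were called in the knockout and none in the controls.

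In the AAV9 cohort Cpt1a was 37.4 to 68 CPM in PBS_sham and 56.3 to 88.3 CPM in AAV_sham, so the groups overlapped in the gene the vector carries. None of the 36 members was called in PBS_TAC against PBS_sham, where 0.0318% of the 15745 genes were. An unadjusted p under 0.05 was found for 7 members, all higher: Gclm, Nqo1, Sqstm1, Srxn1, Cat, Txnrd1 and Keap1. Such a p was found for 2908 of the 15745 genes, a share near that of the members. The atrial gene Myl7 was 210, 1006 and 299 CPM in PBS_sham and 0.0585, 642 and 0.370 CPM in PBS_TAC. With Myl7 as a covariate edgeR called 0 members and 0 of all genes, and 1565 genes had an unadjusted p under 0.05. The median of the 36 members was then 0.24. The part of atrial tissue in these differences was not tested. Gclm, the modifier subunit of the rate-limiting glutathione enzyme, had 20.4, 18.5 and 11.5 CPM in PBS_sham and 29.7, 28.4 and 31.2 in PBS_TAC (log2 fold change 0.83 with SE 0.18, adjusted p 0.108). The groups did not overlap. DESeq2 called it (adjusted p 0.00948), as did voom (0.0241). Gclm exons overlap Gm17494 on the opposite strand, and its count is uncertain. Nqo1 had 57.2, 38.1 and 13.1 CPM in PBS_sham and 87, 67.6 and 80.4 in PBS_TAC (log2 fold change 1.12 with SE 0.36, adjusted p 0.185), and voom called it at 0.96 (adjusted p 0.0311).

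PBS_sham 3, with its low cardiomyocyte level, had the lowest value of the 14 libraries for 24 of the 36 members and the highest for 4. Its TMM factor was 1.39. Genes with up to 1 kb of exon had a median log2 shift from the PBS_sham mean of −0.27 in PBS_sham 3 and 0.25 in PBS_sham 1. The part of these traits was not tested. Without PBS_sham 3 the median difference of the 36 members between PBS_TAC and PBS_sham fell from 0.28 to 0.033, and 1 member, Gclm, was called, at 0.61 (adjusted p 0.0475). With the gene-length offset that median was 0.21. Without PBS_sham 1, 5 were called, among 1796 genes: Nqo1, Sqstm1, Cat, Gclm and Txnrd2. Across the control hearts of both cohorts, 27 of the 36 members had the same sign of change after TAC, 21 higher and 6 lower. The FF_TAC and PBS_TAC comparisons share no library. The share of all genes with the same sign was not taken, so this count shows no agreement particular to the members. It includes PBS_sham 3 and the haemoglobin-low libraries FF_TAC 2 and 3. With haemoglobin-high libraries alone the median of the members in FF_TAC against FF_sham was −0.013.

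**Figure D4:**
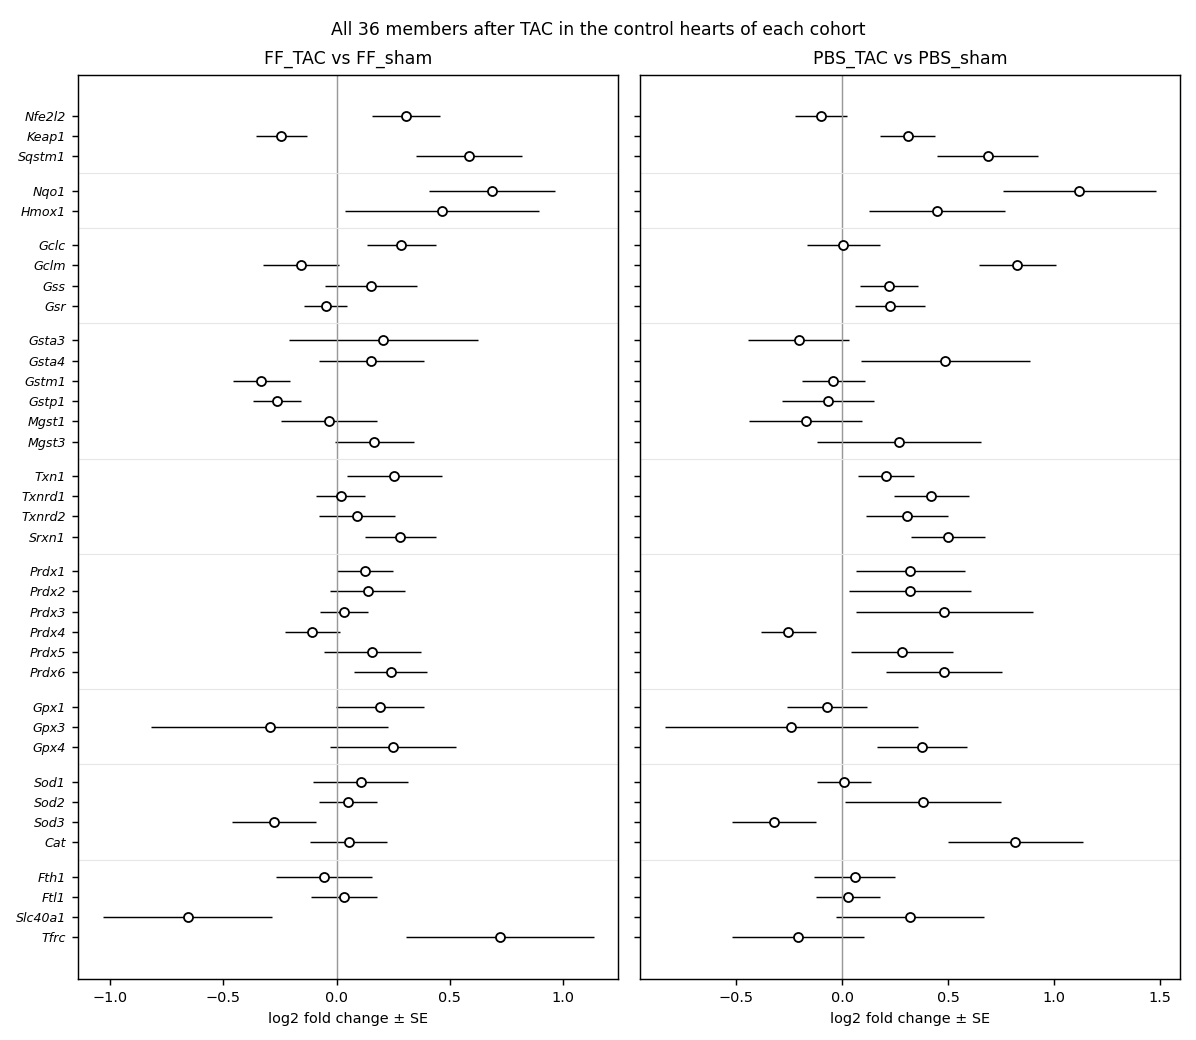
Log2 fold changes of all 36 members after TAC, with bars of 1 SE, in floxed control hearts (left) and saline-injected hearts (right), ordered by role. No point is filled, since none was called, and Nqo1 lies at 0.69 and 1.12.

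With the Cpt1a vector, AAV_TAC against AAV_sham called 0 members (0.00635% of all genes). DESeq2 called 0 members, among 94 genes, and voom 2, among 367 genes (Nfe2l2 and Slc40a1, both lower). By edgeR these were the 2 members with an unadjusted p under 0.05, which 1110 of the 15745 genes had. Nfe2l2 had 106, 101, 91.8 and 95.1 CPM in AAV_sham and 83.8, 77.3, 70.4 and 80.9 in AAV_TAC, without overlap (log2 fold change −0.34 with SE 0.11, adjusted p 0.414). Slc40a1 had 32, 25.2, 24.8 and 30.3 CPM in AAV_sham and 17.4, 11.9, 22.4 and 18.4 in AAV_TAC, also without overlap (log2 fold change −0.68 with SE 0.30, adjusted p 0.671).

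Under overload, AAV_TAC against PBS_TAC called 0 members (0.0381% of all genes). DESeq2 and voom also called 0 members, among 27 and 97 genes called. An unadjusted p under 0.05 was found for 502 of the 15745 genes and for 4 members. Tfrc had 33.5, 40.01 and 26.8 CPM in PBS_TAC and 48.5, 107, 50.2 and 59.2 in AAV_TAC (log2 fold change 0.99 with SE 0.30, adjusted p 0.955). Hmox1 had 16.3, 13.4 and 18.7 CPM in PBS_TAC and 11.3, 7.37, 7.88 and 10.3 in AAV_TAC (log2 fold change −0.80 with SE 0.30, adjusted p 1). Neither pair of groups overlapped. The other 2 were Gclm (log2 fold change −0.39 with SE 0.17, adjusted p 1) and Nfe2l2 (log2 fold change −0.25 with SE 0.11, adjusted p 1).

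The vector in sham hearts, AAV_sham against PBS_sham, called 0 members (0.0127% of all genes). DESeq2 and voom also called 0 members, among 303 and 70 genes called. An unadjusted p under 0.05 was found for 3262 of the 15745 genes. It was found for 6 members: Gclm, Txnrd1 and Slc40a1 higher, Prdx4, Gpx1 and Sod3 lower. PBS_sham 3 was the lowest library of its group for the first 3 and the highest for the last 3. Myl7, given above for PBS_sham, was 119, 911, 21.2 and 0.605 CPM in AAV_sham. With Myl7 as a covariate 0 members and 1 of all genes were called, and 2387 genes had an unadjusted p under 0.05. Without PBS_sham 1, 7 members were called among 2821 genes. The interaction of vector and TAC called 0 members (0.00635% of all genes). DESeq2 and voom also called 0 members, among 16 and 13 genes called. Here 1094 of the 15745 genes and 4 members had an unadjusted p under 0.05. Of these members Gclm had the smallest (log2 fold change −0.90 with SE 0.24, adjusted p 0.688).

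**Figure D5:**
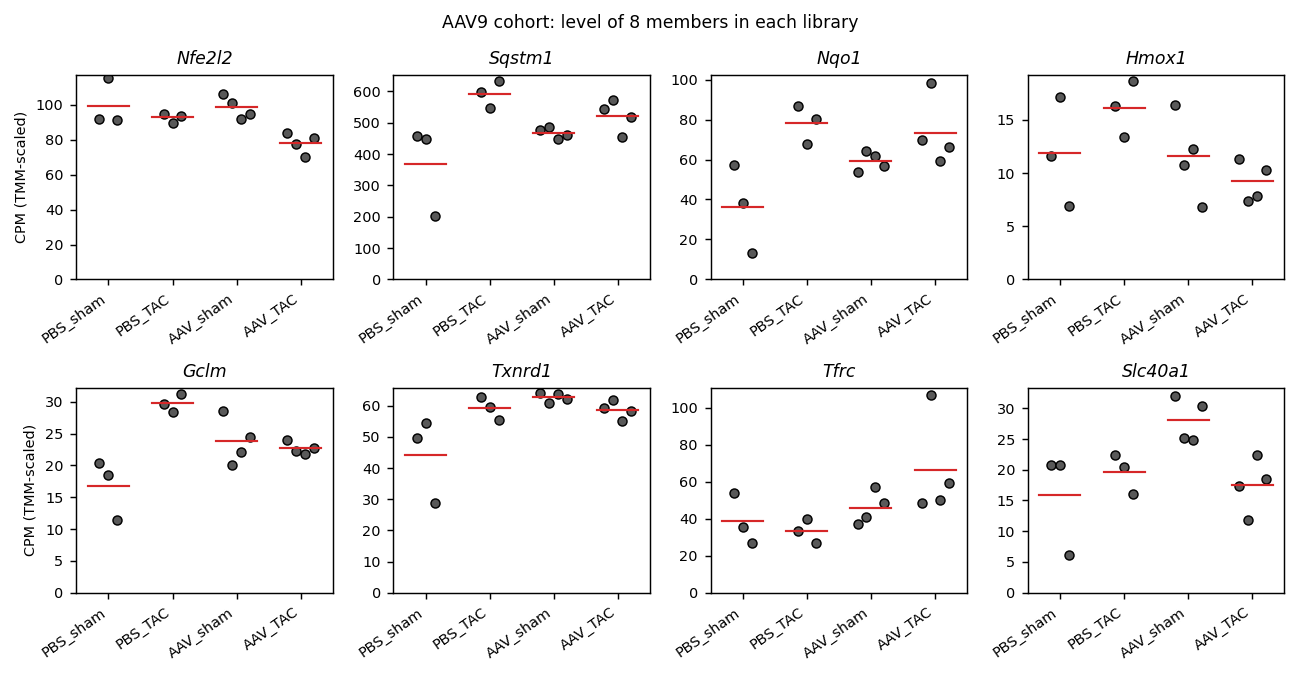
Level in CPM (vertical axis, from 0) of 8 members in each library of the AAV9 cohort, by group, with the group mean as a line. For Gclm the 3 PBS_TAC points lie above the 3 of PBS_sham, for Tfrc the 4 AAV_TAC points lie above the 3 of PBS_TAC, and PBS_sham 3 is the lowest point for Nqo1 and Sqstm1.

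Around the members, 6 lists of other genes of these pathways held 120 genes, of which 112 were tested. Nnt matched 2 rows of the table and was left out. In KO_TAC against KO_sham 39 of the 112 were called (34.8%, beside 25.8% of all genes), 24 higher and 15 lower. Against FF_TAC 28 were called (25%, beside 14.3%), 16 higher and 12 lower. These lists, like the members, were drawn up after earlier results were known. Whether their shares exceed those of genes of like level was not tested. With the haemoglobin term 2 of the 112 (1.79%, beside 1.75% of all genes) were called against KO_sham and 18 (16.1%, beside 7.23%) against FF_TAC. The 2 were Slc3a2, at 0.72 (adjusted p 0.013), and Nox4, at 2.41 (adjusted p 0.0385), so every other rise or fall against KO_sham named here lost its call with that term. In FF_TAC against FF_sham 0 were called.

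Among the other glutathione genes, 4 rose and 4 fell of 24 against KO_sham, and 3 rose and 2 fell against FF_TAC (33.3% and 20.8% called). Slc3a2, the heavy chain of the cystine transporter and of other amino acid transporters, had 84.9 ± 5.76 CPM in KO_TAC and 39.97 ± 5.88 in KO_sham (SD, n = 4; log2 fold change 1.09 with SE 0.15, adjusted p 0.000705). Oplah, the 5-oxoprolinase of the glutathione cycle, had 44 ± 1.37 CPM in KO_TAC and 73.9 ± 8.69 in KO_sham (SD, n = 4; log2 fold change −0.75 with SE 0.14, adjusted p 0.00273). The cyclotransferase gene Ggct also rose (log2 fold change 0.87 with SE 0.19, adjusted p 0.00733). Of 11 tested genes of NADPH supply, which feeds both systems with electrons, 2 (18.2%) were called in each comparison, under the 25.8% of all genes in the first and near the 14.3% in the second. Both fell: the cytosolic isocitrate dehydrogenase Idh1 (log2 fold change −0.78 with SE 0.13, adjusted p 0.00186 and log2 fold change −0.69 with SE 0.13, adjusted p 0.00345) and the mitochondrial NAD kinase Nadk2 (log2 fold change −1.04 with SE 0.19, adjusted p 0.00268 and log2 fold change −0.76 with SE 0.19, adjusted p 0.0144). In the other thioredoxin genes 4 of 12 (33.3%) rose against KO_sham, with the stress gene Sesn2 at log2 fold change 1.27 with SE 0.31, adjusted p 0.0107. Against FF_TAC 1 rose (Txndc5) and 1 fell (Msrb2), 16.7% of the list. Txndc5 and Nadk2 were not called against FF_TAC with the haemoglobin term (adjusted p 0.0615 and 0.0812).

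Of 21 other NRF2 partners and targets, 6 rose and 2 fell against KO_sham (38.1% called), and 3 rose and 2 fell against FF_TAC (23.8%). The metallothioneins Mt1 and Mt2, which bind zinc and copper, were among those that rose in both: Mt2 had 39.5 ± 23 CPM in KO_TAC and 6.4 ± 2.43 in KO_sham (SD, n = 4; log2 fold change 2.62 with SE 0.48, adjusted p 0.00289), and was log2 fold change 2.68 with SE 0.48, adjusted p 0.00274 against FF_TAC. Mt1 gave log2 fold change 1.40 with SE 0.28, adjusted p 0.00399 and log2 fold change 1.44 with SE 0.28, adjusted p 0.004. Maff, a small MAF partner of NRF2, rose against KO_sham (log2 fold change 2.82 with SE 0.89, adjusted p 0.0316). The enzymes that produce oxidants had 5 higher and 1 lower of 12 against KO_sham (50%), and 6 higher and 1 lower against FF_TAC (58.3%), of which 1 and 5 were called with the haemoglobin term. Nox4, an NADPH oxidase of heart muscle and fibroblasts, had 9.23 ± 4.52 CPM in KO_TAC and 1.61 ± 0.526 in KO_sham (SD, n = 4; log2 fold change 2.51 with SE 0.39, adjusted p 0.00137). Cybb, the phagocyte oxidase, had 36.5 ± 14.1 CPM in KO_TAC and 11.2 ± 2.72 in FF_TAC (SD, n = 4; log2 fold change 1.70 with SE 0.30, adjusted p 0.00254), beside the macrophage levels given above.

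Of 32 tested iron and haem genes, 5 rose and 6 fell against KO_sham (34.4% called), and 3 rose and 4 fell against FF_TAC (21.9%). Cp, ceruloplasmin, whose ferroxidase works with ferroportin, rose in both (log2 fold change 0.89 with SE 0.16, adjusted p 0.00304 and log2 fold change 0.87 with SE 0.16, adjusted p 0.00362). Lcn2, a carrier of iron-binding siderophores, rose in both as well, with 18.2 ± 17.6 CPM in KO_TAC and 3.16 ± 1.46 in FF_TAC (SD, n = 4; log2 fold change 2.51 with SE 0.72, adjusted p 0.031). Trf, transferrin, rose against FF_TAC (log2 fold change 1.24 with SE 0.22, adjusted p 0.00263). Cd163, the macrophage receptor for haemoglobin, fell against KO_sham (log2 fold change −0.79 with SE 0.24, adjusted p 0.0255).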

How the data were processed

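Whole-number read counts per gene were used as deposited. Per the submitters' processing notes the authors worked with HISAT2 2.1.0 and featureCounts (Subread 1.5.1) on GRCm38, and the strand setting of the counting is not given in the sources used here. Gene IDs were matched to GENCODE M21 (55227 of 55487 had a symbol). The unmatched rows held 0.00336% of counts. Each cohort was fitted alone with edgeR 4.0.16 in R 4.3.3, using filterByExpr, TMM scaling and 1 mean per group. DESeq2 1.42.0 and limma 3.58.1 (voom with sample weights) served as alternatives, beside other filters and scalings, a term for libraries with under 100 CPM of haemoglobin transcripts, a replicate block and leaving out each library. The gene-length offset, the Myl7 covariate in the floxed cohort and the fit without FF_TAC 2 and 3 were chosen after seeing the data. The fits were tested on simulated data. In the 42 pairs of libraries within groups, counts differed beyond sampling noise (chi-square per degree of freedom 6.29 to 234), so each library counted once. Intervals of single counts would cover counting error only, and none is given.

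The members, roles and pathway lists were chosen with earlier results of these data known. By the naming rule, levels per library were given for the 10 members called with the smallest adjusted p and for Hmox1, Nqo1 and Tfrc, and at most 3 called genes were named per pathway list and comparison. Levels per library of Nfe2l2, Prdx3, Gpx3, Slc40a1, of Gsta4, Gpx4 and Fth1 in KO_TAC, and of the genes of the AAV9 cohort were added after their values were seen. A miR370 arm of the study was not analysed here.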

Additional observations from a re-analysis of the deposited data

Results flagged for a closer look

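In 72 groups of 4 libraries (12 members in 6 groups), 4 held a library far from the other 3 by Dixon's ratio, which chance alone does in about 1 in 20 groups. Hmox1 was 42.0 CPM in the haemoglobin-low library labelled KO_sham 2 and 9.81 to 14.1 CPM in the other KO_sham libraries. Tfrc was 124.8 CPM in KO_TAC 2 and 48.1 to 54.7 CPM in KO_TAC 1, 3 and 4. Txnrd1 was 58.0 CPM in KO_TAC 2, the library where short genes sat highest, and 78.4 to 81.8 CPM in the others of its group. Sod3 was 32.7 CPM in AAV_sham 4 and 43.1 to 44.0 CPM in AAV_sham 1 to 3.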

How the results depend on the processing

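Of 102 followed member results, 0 reversed a call, and all 24 called ones kept their call with DESeq2, DESeq2's size factors, a mean of at least 5 CPM, the Myl7 covariate and voom. In KO_TAC against KO_sham the 13 called members became 1 with the haemoglobin term, 7 with only the compared groups fitted, 23 with voom, and 8 (without KO_sham 4) to 19 (without KO_TAC 1) when a library was left out. Over all genes the 4031 calls of that comparison became 273, 2327, 8336, 2546 and 6440 in these fits, in the same order. In KO_TAC against FF_TAC the 11 became 5 with the haemoglobin term, 0 with haemoglobin-low libraries fitted alone, 6 without a filter on low counts, 4 with only the compared groups, 18 with voom, and 4 (without FF_TAC 4) to 14 (without KO_TAC 1) when a library was left out, with 6 without FF_TAC 1 or KO_TAC 3. The 2235 calls over all genes became 1127, 0, 1680, 557, 6002, 1126 and 3845 in the same order. They were 1375 without FF_TAC 1 and 1204 without KO_TAC 3. The 0 calls of the knockout interaction became 1 with DESeq2, 11 with voom and 0 to 2 with a library left out. Its 7 calls over all genes became 371, 2930 and 0 to 215. In PBS_TAC against PBS_sham 0 became 1 with DESeq2, 2 with voom and 0 to 5 with a library left out (5 without PBS_sham 1). There 5 calls over all genes became 344, 252 and 0 to 1796 (1796 without PBS_sham 1). In AAV_TAC against AAV_sham voom gave 2, among 367 genes. In AAV_sham against PBS_sham leaving out a library gave 0 to 7 (7 without PBS_sham 1, among 2821 genes). The causes of these shifts were not tested. Fits of fewer groups or libraries have fewer residual degrees of freedom, and the part of this in the shifts was not tested either. Requiring A after the promoter core took the members with a site from 8 to 2. The gene-length offset ended 5 of the 24 calls: Hmox1 at 1.18, Prdx4 at 0.26, Gpx3 at 1.45 and Ftl1 at 0.17 against KO_sham, and Srxn1 at 0.47 against FF_TAC.

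A fit with the replicate block gave 13 called members in KO_TAC against KO_sham, 10 in KO_TAC against FF_TAC (Txn1 and Prdx3 went, Nfe2l2 came) and 0 elsewhere. It called 3889 genes in the first comparison and 2123 in the second. The replicate numbers did not pair the samples: deviations of same-numbered libraries correlated at −0.435 to 0.456 in the floxed cohort (10 of 24 pairs over 0.1) and −0.581 to 0.464 in the AAV9 cohort (7 of 19).

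KO_TAC holds no library with the haemoglobin level of the sham hearts, so for KO_TAC the group and that state cannot be told apart beyond what FF_TAC 2 and 3 and KO_sham 2 allow. With 3 or 4 hearts per group, a p over the threshold does not show that a member did not change.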
